A study of Mus musculus with 4 samples.

Results

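The transcripts of 9 receptors that steer myeloid cells along chemical gradients were examined in mouse cells. The library titles name these cells as Kupffer cells, the macrophages that reside in the liver. The 9 genes were fixed by name (Ccr1, Ccr2, Ccrl2, Cxcr4, Cx3cr1, C5ar1, C3ar1, Fpr1 and Fpr2), and each was found once among the 56004 gene rows of the expression tables. The treated cells had received exosomes of MC38-PRL-3 cells (2 libraries, called PRL-3 libraries), and the control cells had received exosomes of MC38-VT cells (2 libraries, called VT libraries). MC38 is a mouse colon carcinoma line, PRL-3 is a phosphatase (gene Ptp4a3), and the labels do not expand VT. In both groups the RNA was taken 48 h after the exosomes were given, and an amount of 10 ug is named only beside MC38-VT. The titles call the 2 libraries of each group biological replicates. They do not say whether these came from separate animals or cultures, and strain, sex and age are not stated, so p-values measure the spread between these libraries.

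All 9 genes encode membrane proteins of the G protein-coupled receptor class. When a ligand binds, most of these receptors act through pertussis toxin-sensitive Gi proteins, whose beta-gamma subunits activate phosphoinositide 3-kinase gamma and phospholipase C beta, and the cell polarises and crawls toward the source. Chemokines are the ligands of Ccr1, Ccr2, Cxcr4 and Cx3cr1, complement fragments those of C5ar1 and C3ar1, and formylated peptides of bacteria and mitochondria those of Fpr1 and Fpr2. Ccrl2 is atypical. It binds the attractant chemerin and presents it to other cells without the usual G protein signal. In the mouse, Ccr2 is needed for the exit of inflammatory monocytes from bone marrow, and Cx3cr1 is known for its high level in patrolling monocytes and microglia.

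The sums of FPKM (fragments scaled to transcript length in kilobases and to 1e6 fragments of the library) were 675475 to 725599 per library, and a fit to the low values put the depth at 17.0 to 18.5 in units of 1e6 fragments. PRL-3 replicate 1 stood apart, with an SD of the log2 ratio of 0.402 to 0.412 in each pair that held it, against 0.313 to 0.366 in the other pairs. The libraries carried macrophage transcripts, and 9 of 10 macrophage markers were tested. The marker left out, Mertk, was listed at 0.02 FPKM in VT replicate 2 and at 0 in the other libraries. Most markers of resident Kupffer cells were at 0 or too low to be tested. Of 13 such genes, 6 (Clec4f, Vsig4, Timd4, Marco, Cd163 and C6, several of them defining) were listed at 0 in every library, and Folr2, Clec1b and Cdh5 were too low to be tested. The other 4 were tested, with Id3 at 14.7 to 17.1 FPKM, Nr1h3 at 4.68 to 6.85, Cd5l at 1.05 to 3.52 and Slc40a1 at 1.09 to 2.94. Most other marker lists were low. Of the markers of dendritic cells (8), lymphocytes (10) and hepatocytes (6), none reached 1 FPKM in any library, and Ly6g, Mpo and Elane, which define neutrophils, were listed at 0, although S100a8, also on the neutrophil list, was at 216 and 271 FPKM in PRL-3 replicates 1 and 2, against 309 and 247 in VT replicates 1 and 2. The macrophage list summed to 8279 to 8351 FPKM in the PRL-3 libraries and 9433 to 9493 in the VT libraries, and the monocyte list to 14.2 to 14.6 and 10.4. In the same order of groups, the summed levels were 7.87 to 9.58 and 6.19 to 6.86 for liver endothelial and stellate cells. Most of the macrophage sum was Lyz2, at 5916 and 5988 FPKM in PRL-3 replicates 1 and 2, against 6822 and 6831 in VT replicates 1 and 2. Of the 9 tested macrophage markers, 7 were lower in the PRL-3 libraries, 2 were higher and 0 were called. Over all genes tested, 53.4% were higher and 0.0492% were called. The groups did not overlap for 5 of the 9, with the PRL-3 values lower for 4 and higher for 1 (Fcgr1). Of all 12193 genes tested, 5151 did not overlap. Fcgr1 was at 115 and 80.4 FPKM in PRL-3 replicates 1 and 2, against 69.5 and 76.65 in VT replicates 1 and 2. In the monocyte list 7 of 10 genes stayed below 1 FPKM in every library, and in the endothelial and stellate list 8 of 10. The part of these differences between sums in the receptor values was not tested, and fewer cells of a type cannot be told apart from less RNA per cell in bulk RNA.

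The formyl peptide receptors are similar in sequence, and a fragment that falls inside a stretch they share cannot be placed by its sequence alone. The coding sequences of Fpr1 and Fpr2 were 70.4% identical over 1038 aligned bases, with a longest identical run of 50 bases. Every other pair among the 9 receptors stayed at 64.5% or less with runs of up to 16 bases. The stretch around that run is shown for both genes because it is the longest that they share. The depth fit put fragments at 220 to 230 bases, so a fragment of that length would not fall inside the run. Wrong placement of fragments between Fpr1 and Fpr2 was not tested. Both sequences were read from GENCODE M21 on GRCm38, 5′ to 3′ on the strand of the gene. The identical run is in capitals and 15 bases of flank on either side are in lower case.
Fpr1, chr17:17877265-17877344, minus strand: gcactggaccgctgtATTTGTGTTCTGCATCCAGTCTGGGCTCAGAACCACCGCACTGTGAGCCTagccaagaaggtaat
Fpr2, chr17:17893101-17893180, plus strand: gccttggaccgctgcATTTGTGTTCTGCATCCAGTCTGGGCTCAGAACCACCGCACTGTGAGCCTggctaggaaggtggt

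The 9 receptors covered a wide range of levels, from C3ar1 at a mean of 134 FPKM over all libraries to Cxcr4 at 0.507. The order by mean was C3ar1, C5ar1, Ccr1, Ccr2, Cx3cr1, Fpr2, Ccrl2, Fpr1 and Cxcr4. C3ar1 was the highest and Cxcr4 the lowest in all 4 libraries. The ranges over libraries of neighbours in this order were separate between C3ar1 and C5ar1, between Ccr1 and Ccr2, between Fpr2 and Ccrl2 and between Fpr1 and Cxcr4. They overlapped for C5ar1 and Ccr1, for Ccr2 and Cx3cr1, for Cx3cr1 and Fpr2 and for Ccrl2 and Fpr1, and the order of these neighbours was not the same in every library. Within a library, Ccr2 was above Cx3cr1 in 2 of 4, and the first of each other pair was above the second in 3 of 4. Among all 12193 tested genes, 93.8% had a lower mean than C3ar1, 86.5% than C5ar1 and 79.7% than Ccr1, against 6.59% for Fpr1. Receptors for complement fragments and for inflammatory CC chemokines thus stood above the formyl peptide receptors in these cells.

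**Figure D1:**
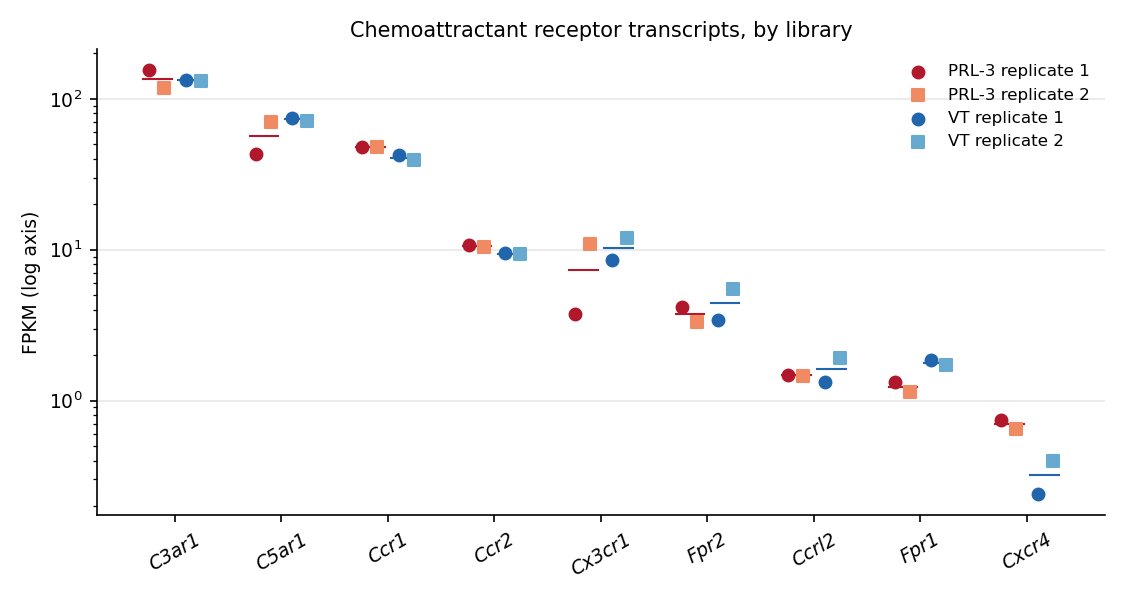
FPKM of the 9 receptors (log axis) in each library, with PRL-3 libraries left of VT libraries for each gene and a short line at each group mean. C3ar1 lay at 118 to 154 in all libraries, and the points of Cx3cr1 and C5ar1 in PRL-3 replicate 1 (3.73 and 42.9) lay below those of the other libraries.

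The question was whether exosomes of the PRL-3 line left these receptors at another level than exosomes of the VT line. None of the 8 receptors abundant enough to be tested was called by limma (adjusted p under 0.05, Benjamini-Hochberg over all genes), where 0.0492% of all genes were, and none had an unadjusted p under 0.05, where that share was 9.51%. Of the 8, 3 had a higher mean log2 level in the PRL-3 libraries and 5 a lower one, with a median log2 difference of -0.13, against 53.4% higher and a median of 0.02 over all genes tested. The groups did not overlap for 4 of the 8. The PRL-3 values were the higher ones for Ccr1 and Ccr2, an order that 24.3% of all genes had, and the lower ones for C5ar1 and Fpr1, an order that 18% of all genes had. These counts were close to the shares over all genes. With 2 libraries per group, the smallest two-sided p of an exact permutation test on a single receptor is 0.333, so no such test could pass. The other 4 receptors tested, C3ar1, Cx3cr1, Fpr2 and Ccrl2, overlapped between the groups.

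**Figure D2:**
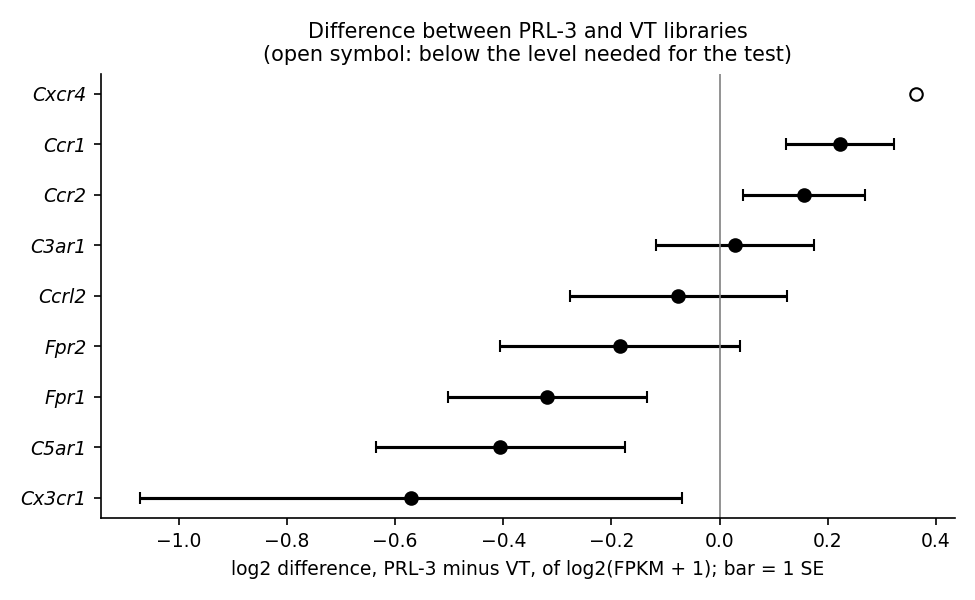
Log2 difference of log2(FPKM + 1), PRL-3 minus VT, for each receptor, with bars of 1 SE from limma and an open symbol without a bar for Cxcr4, which was not tested. The differences of the tested receptors ran from -0.57 (Cx3cr1) to 0.22 (Ccr1), and the widest bar was that of Cx3cr1.

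The CC chemokine receptors Ccr1 and Ccr2 had higher means in the PRL-3 libraries, by less than the test could call. Ccr1 (chromosome 9, 123962124 to 123968692, minus strand) binds Ccl3, Ccl5, Ccl6, Ccl7 and Ccl9 in the mouse. It stood at 47.6 and 47.7 FPKM in PRL-3 replicates 1 and 2, against 42.4 and 39.1 in VT replicates 1 and 2. The PRL-3 libraries were nearly equal and the gap to the nearest VT library was wider than the gap between the VT libraries. Its group means were 47.7 ± 0.035 and 40.7 ± 2.31 FPKM (SD, n = 2 each). The log2 difference was 0.22, its SE 0.10 and the limma adjusted p 0.56. Ccr2 (chromosome 9, 124101950 to 124113557, plus strand) is the receptor of the monocyte attractant Ccl2. It stood at 10.8 and 10.4 FPKM in PRL-3 replicates 1 and 2, against 9.45 and 9.38 in VT replicates 1 and 2. The groups did not overlap, and the log2 difference was 0.16 with an SE of 0.11 (limma adjusted p = 0.69). With any single library left out, the log2 differences were 0.17 to 0.28 for Ccr1 and 0.13 to 0.18 for Ccr2. Groups that do not overlap cannot change sign in this way, so the kept direction adds no support.

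The complement receptors had the highest means. C3ar1 (chromosome 6, 122847138 to 122856161, minus strand), the receptor of the fragment C3a, was at 154 and 118 FPKM in PRL-3 replicates 1 and 2, against 133 and 132 in VT replicates 1 and 2. The VT libraries were almost equal and the PRL-3 libraries lay on either side of them. The group means were 136 ± 25.5 and 132 ± 0.41 (SD, n = 2 each), with a log2 difference of 0.03 and an SE of 0.15 (limma adjusted p = 0.97). That difference was -0.16 without PRL-3 replicate 1 and 0.22 without PRL-3 replicate 2.

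C5ar1 (chromosome 7, 16246743 to 16259540, minus strand), the receptor of the strong attractant C5a, was at 42.9 and 70.4 FPKM in PRL-3 replicates 1 and 2, against 74.9 and 71.4 in VT replicates 1 and 2. One library, PRL-3 replicate 1, was far below the other 3, which lay within 70.4 to 74.9. The group means were 56.7 ± 19.4 and 73.2 ± 2.47 FPKM (SD, n = 2 each). The log2 difference was -0.41 and its SE 0.23 (limma adjusted p = 0.63). Without PRL-3 replicate 1 the difference was -0.06 (adjusted p = 0.87). Without PRL-3 replicate 2 it was -0.76 and passed (adjusted p = 0.046, 100 genes called in that fit), with the lone PRL-3 library then assumed to vary as the VT libraries did. C5ar2, the neighbouring second receptor of C5a, stayed at 0.41 FPKM or less and was not tested.

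Cx3cr1 (chromosome 9, 119901616 to 120069879, minus strand), the fractalkine receptor, varied most between libraries of one group. It was at 3.73 and 10.9 FPKM in PRL-3 replicates 1 and 2, against 8.54 and 12.03 in VT replicates 1 and 2. PRL-3 replicate 1 was again the lowest, and the groups overlapped because PRL-3 replicate 2 lay between the VT libraries. The log2 difference was -0.57 with an SE of 0.50 (limma adjusted p = 0.76), and 0.10 without PRL-3 replicate 1. The annotated gene is long because 1 of its 3 transcripts reaches over other genes, and 78 of its 4505 exonic bases overlap the antisense gene Gm33858. No label mentions a strand-specific kit, so reads of that overlap cannot be assigned by strand.

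The spread within the PRL-3 group set apart C5ar1 and Cx3cr1. On the log2 scale, the gap between PRL-3 replicates 1 and 2 was -0.70 for C5ar1, wider than for 95.4% of all tested genes, and -1.33 for Cx3cr1, wider than for 98.9%. C3ar1 went the other way, with a gap of 0.38 (wider than 81.7%). Ccr1 had a gap of 0.00, narrower than all but 0.58% of the genes. In the VT group the widest gaps were those of Fpr2 (-0.55, wider than 95.7%) and Cx3cr1 (-0.45, wider than 93.6%). PRL-3 replicate 1 was the library farthest from the mean of the others for 4 of the 8 tested receptors (C3ar1, C5ar1, Ccr2 and Cx3cr1), and for 40.2% of all tested genes, so its part here was close to its part in the whole table. What separates that library from the others was not tested.

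**Figure D3:**
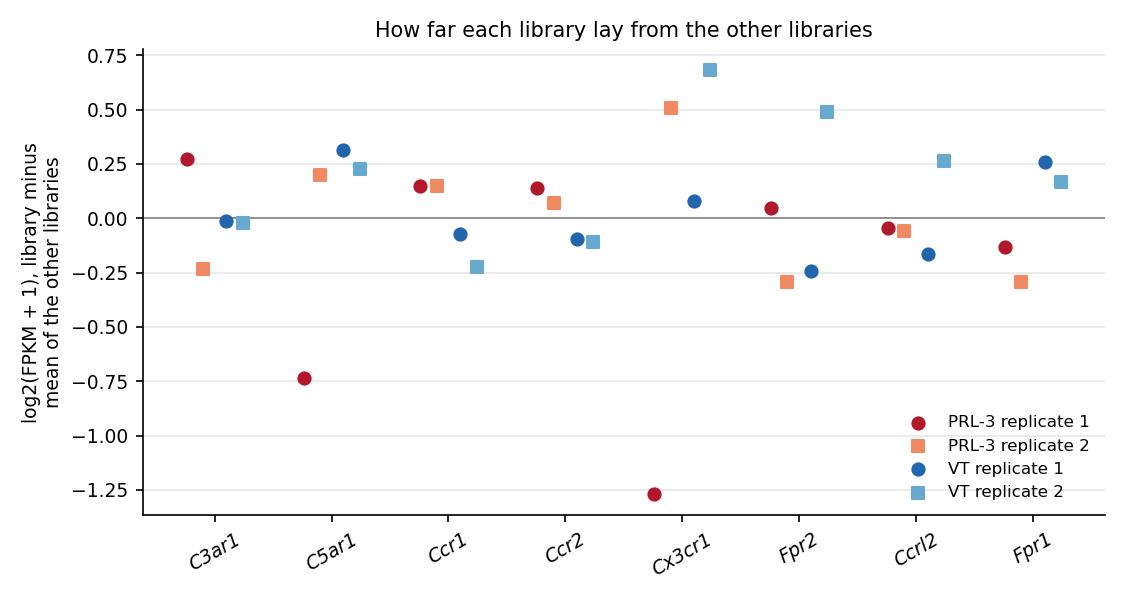
Level of each tested receptor in a library minus the mean of the other libraries, on the log2(FPKM + 1) scale, with PRL-3 libraries left of VT libraries. PRL-3 replicate 1 lay 1.27 below the others for Cx3cr1 and 0.74 below for C5ar1, and 0.27 above for C3ar1.

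The formyl peptide receptors, which lie side by side on chromosome 17, were low. Fpr1 (17876471 to 17883940, minus strand), a receptor of formylated peptides, was at 1.33 and 1.14 FPKM in PRL-3 replicates 1 and 2, against 1.85 and 1.72 in VT replicates 1 and 2. The PRL-3 values were the lower ones, with no overlap. At the fitted depth these values stand for about 25 and 23 fragments in the PRL-3 libraries, against about 37 and 35 in the VT libraries. The log2 difference was -0.32 with an SE of 0.18 (limma adjusted p = 0.63), and it ran from -0.38 to -0.26 with 1 library left out. Fpr2 (17887824 to 17893952, plus strand) also takes up lipid and protein ligands such as annexin A1 and serum amyloid A. It was at 4.14 and 3.31 FPKM in PRL-3 replicates 1 and 2, against 3.42 and 5.47 in VT replicates 1 and 2, or about 64 and 55 against 57 and 92 fragments. VT replicate 2 was the highest and the groups overlapped (log2 difference -0.18, SE 0.22, limma adjusted p = 0.82), and the sign turned without that library, to 0.091. Exons of Fpr2 and its neighbour Fpr3 overlap by 48 bases on the same strand, and Fpr3 was at 0.37 FPKM or less.

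Ccrl2 (chromosome 9, 111054486 to 111057519, minus strand) was at 1.48 and 1.46 FPKM in PRL-3 replicates 1 and 2, against 1.33 and 1.91 in VT replicates 1 and 2. The PRL-3 libraries were nearly equal and lay between the VT libraries. Its log2 difference was -0.08 with an SE of 0.20 (limma adjusted p = 0.93), and 0.084 without VT replicate 2. Transcripts of chemerin (Rarres2), the ligand it presents, were listed at 0.04 FPKM in PRL-3 replicate 1 and at 0 in the other libraries, and Cmklr1, the signalling receptor of chemerin, was at 0.44 or less.

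Cxcr4 (chromosome 1, 128588199 to 128592293, minus strand), the receptor of Cxcl12 that holds leukocytes in bone marrow, was below 1 FPKM in every library and was therefore not tested. It was at 0.74 and 0.65 in PRL-3 replicates 1 and 2, against 0.24 and 0.40 in VT replicates 1 and 2. The PRL-3 values were the higher ones, with no overlap, and the ratio of the group means was 2.17. These values stand for about 20 and 19 fragments in the PRL-3 libraries, against about 7 and 12 in the VT libraries. With no filter on low values, the log2 difference of 0.36 had an SE of 0.15 and did not pass (limma adjusted p = 0.77). No gene of any level was called in that fit.

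**Figure D4:**
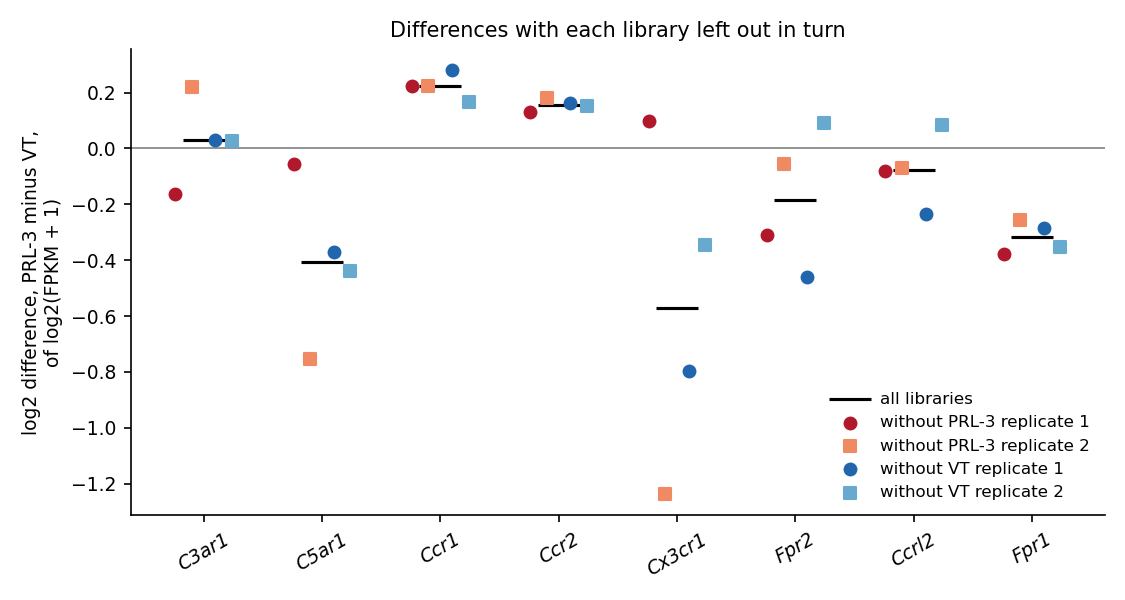
Log2 difference, PRL-3 minus VT, of each tested receptor with all libraries (black line) and with each library left out in turn (points). Ccr1, Ccr2, C5ar1 and Fpr1 stayed on one side of 0, as they had to because their groups did not overlap. C3ar1 and Cx3cr1 crossed 0 without PRL-3 replicate 1, and Fpr2 and Ccrl2 without VT replicate 2.

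Transcripts of many ligands of these receptors were present in the same libraries. Of 17 ligand genes, 12 were tested, 0 were called by limma and 2 (Cxcl12 and Saa3) had an unadjusted p under 0.05. Cxcl12 reached the level for testing only through the PRL-3 libraries, so its p and its lack of overlap are tied to that filter. The means were higher in the PRL-3 libraries for 5 and lower for 7, with a median log2 difference of -0.04. The groups did not overlap for 7 of the 12, with the PRL-3 values higher for Cxcl12 and Saa3 and lower for Anxa1, Ccl2, Ccl4, Ccl6 and Ccl9. Over all genes tested, 5151 of 12193 did not overlap (24.3% with the PRL-3 values higher and 18% with them lower), and 9.51% had an unadjusted p under 0.05. The ligand transcripts above C3ar1, the most abundant receptor, by several fold in every library were Ccl3 (2200 to 2705 FPKM), Ccl9 (1755 to 2355), Mif (940 to 1105) and Ccl4 (722 to 936). The ligands Ccl2 (131 to 171) and Anxa1 (177 to 197), an annexin that engages Fpr2, lay in the range of C3ar1 or above it.

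The lower ligands are given by level. Ccl7, a ligand of Ccr1 and Ccr2, was at 47.0 to 70.7 FPKM. Ccl6 was at 3.34 to 5.41 and Ccl5 at 2.16 to 4.70. C3, the precursor of C3a, was at 0.88 to 1.70, far under its receptor. Saa3, an acute-phase protein, was at 84.0 and 69.7 FPKM in PRL-3 replicates 1 and 2, against 59.3 and 43.0 in VT replicates 1 and 2. Its groups did not overlap, with a log2 difference of 0.59 and an SE of 0.18 (limma adjusted p = 0.48). Cxcl12, the ligand of Cxcr4, was at 1.30 and 1.05 FPKM in PRL-3 replicates 1 and 2, and VT replicates 1 and 2 listed it at 0 (limma adjusted p = 0.45). It was tested only because of its PRL-3 values, so that p is no independent support. Fractalkine (Cx3cl1), complement C5 (Hc) and Ccl8 were listed at 0 in all 4 libraries, so Cx3cr1 and C5ar1 were expressed with no listed transcript of their main ligand.

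**Figure D5:**
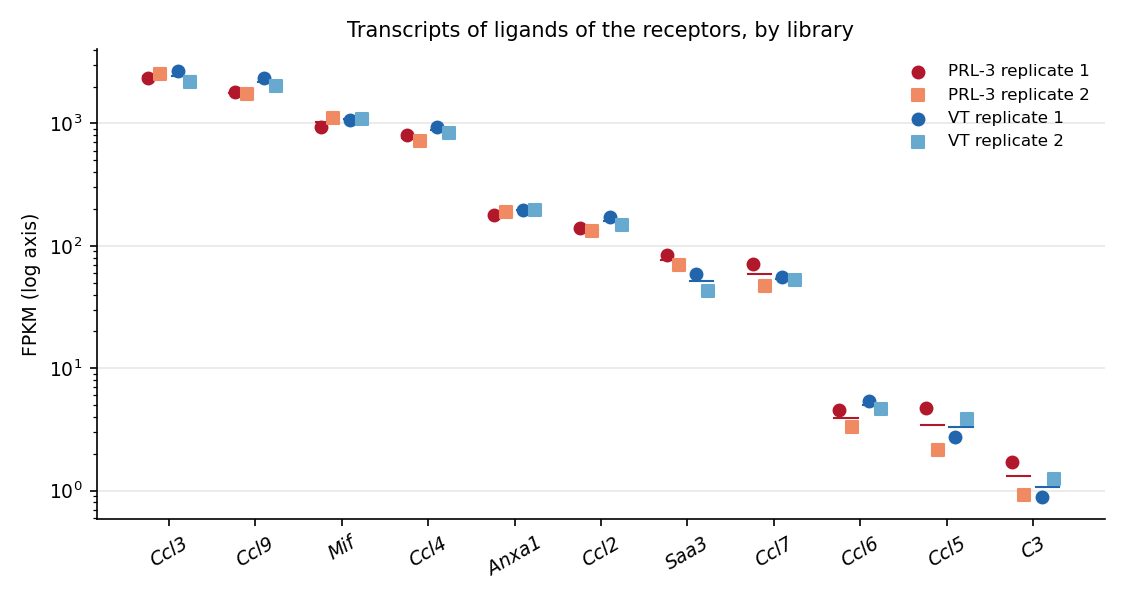
FPKM (log axis) of the tested ligand genes with a value above 0 in every library, with PRL-3 libraries left of VT libraries and a short line at each group mean. Ccl3 and Ccl9 lay at 1755 to 2705 and C3 at 0.88 to 1.70, and Saa3 was higher in the PRL-3 libraries without overlap.

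Other attractant receptors were mostly silent. Of 33 further receptor genes, which include the growth factor receptors Csf1r and Csf3r of another receptor class, 10 were tested. Of these 10, 0 were called by limma and 1 (Ptafr) had an unadjusted p under 0.05. The means were higher for 5 and lower for 5, with a median log2 difference of -0.03, and the groups did not overlap for 2. Over all genes tested, 0.0492% were called, 9.51% had an unadjusted p under 0.05, 53.4% were higher and 5151 of 12193 did not overlap. The most abundant of the 10 was Csf1r, the receptor of the macrophage growth factor. It was at 91.6 and 119 FPKM in PRL-3 replicates 1 and 2, against 114 and 105 in VT replicates 1 and 2. Ptafr, the receptor of platelet-activating factor, was at 7.93 and 6.89 against 10.1 and 9.97 in the same order, with no overlap between the groups and a log2 difference of -0.40 (SE 0.13, limma adjusted p = 0.49). Csf3r, the G-CSF receptor, was at 5.30 to 8.58 and the sphingosine-1-phosphate receptor S1pr2 at 4.59 to 6.39. Cxcr2, the receptor of neutrophil attractants, stayed at 0.18 or less.

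Transcripts of most signalling genes downstream of the receptors were present. Of 41 symbols 39 were found (Adrbk1 and Adrbk2 are older names of Grk2 and Grk3), and 36 were tested, with 0 called by limma and 4 (Gnai2, Elmo1, Grk6 and Rgs3, chosen after their values were seen) at an unadjusted p under 0.05. Their median log2 difference was 0.04, with 19 higher and 17 lower, and 15 without overlap of the groups (7 with the PRL-3 values higher and 8 with them lower). The shares over all genes tested were again 9.51% for an unadjusted p under 0.05 and 5151 of 12193 for groups that did not overlap, close to the counts of this list. The 3 genes not tested were Gnai1 and Grk3, listed at 0 in all libraries, and Rgs18, at 0.26 to 0.58 FPKM. The log2 difference was 0.34 for Elmo1, a scaffold of Rac activation, and -0.38 for the receptor kinase Grk6. The 4 most abundant were Gnb1 (359 to 382 FPKM) and Gng5 (243 to 313), G protein beta and gamma subunits, and the GTPases Rac2 (294 to 367) and Cdc42 (260 to 278). Gng5 was at 313 and 287 FPKM in PRL-3 replicates 1 and 2, against 271 and 243 in VT replicates 1 and 2 (log2 difference 0.23, SE 0.12, limma adjusted p = 0.59), and Cdc42 at 260 and 265 against 269.7 and 278 in the same order (log2 difference -0.06, adjusted p = 0.88).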

How the data were processed

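The authors deposited 1 table per library with a value per gene, rounded to 2 decimals. The unit is not named in the labels, and the values were read as FPKM as the authors deposited them, because the sums differed between libraries and low values fell on whole fragments. The submitters' processing notes name RSEM, DESeq2 and mm10. The aligner, the assembler and the annotation used are not given in the sources used for this text. Of 55359 rows with an Ensembl identifier, 52083 matched GENCODE M21 (GRCm38), which gave positions and sequences. An assembled transcript identifier was carried by 4868 rows, among them those of C3ar1, Ccr2 and Cx3cr1. For these 3 receptors the stretch that was counted may differ from the annotated positions and exons given here.

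Depth was fitted on genes with a single transcript of 600 to 2000 bases, and 87.0% to 90.5% of their low values came out within 0.2 of a whole fragment, against 40% by chance. Fragment numbers of single genes use the longest annotated transcript and are approximations that cover no error beyond counting.

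A gene was tested if 2 or more libraries reached an FPKM of 1. Values were compared as log2(FPKM + 1), a scale that understates changes of low genes, with limma 3.58.1 in R 4.3.3 (trend, robust moderation, two-sided), with Benjamini-Hochberg adjustment over 12193 genes. The fit was tested on simulated data. Differences are PRL-3 minus VT. Coding sequences were aligned globally with Biopython 1.88. The named genes are all 9 receptors, all tested ligands, and the 4 of highest mean from each of the other receptor and signalling lists. Genes named for an unadjusted p (Ptafr among them), a low level or a marker role were picked with their values in view. The receptors and lists were chosen with earlier results of these data known. A result on 1 further gene is not reported here.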

Additional observations from a re-analysis of the deposited data

How the results depend on the processing

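No receptor was called in any of the 10 settings that kept all libraries (lowest adjusted p 0.52, limma), and all 78 receptor values in them kept their sign. Settings that changed only the filter, the mean-variance trend, the robust moderation or the replicate block leave the log2 difference as it was. No sign could change there. Nor could it with 1 library left out for Ccr1, Ccr2, C5ar1 and Fpr1, whose groups did not overlap. With 1 library left out, 27 of 32 values kept their sign and stayed uncalled, 4 changed sign and 1 (C5ar1) passed. The ranges without 1 library were -0.16 to 0.22 for C3ar1, -1.24 to 0.10 for Cx3cr1, -0.24 to 0.084 for Ccrl2, -0.46 to 0.091 for Fpr2 and -0.76 to -0.06 for C5ar1, and the number of receptors called was 0 to 1. The number of receptors without overlap and lower in the PRL-3 libraries was 2 to 5 without 1 library, against 2, and 1 among genes with a mean FPKM of 5 or more, where fewer genes were tested.

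The count over all genes was 6. It was 1 with a pseudocount of 0.1, 0 with no filter, 1 with a mean FPKM of 5 or more, 10 with no mean-variance trend and 0 with no robust moderation, and 0 to 100 without 1 library (100 without PRL-3 replicate 2). The replicate block gave 15 calls and no receptor among them. Same-numbered libraries did not deviate together (r = -0.06 across genes), so the numbers were not read as pairs. The causes were not tested. Without 1 library, a lone library is assumed to vary like the other group. The low receptors Cxcr4, Fpr1, Ccrl2 and Fpr2 rest on about 7 to 92 fragments per library, where counting error is large relative to the level.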
